A study of Mus musculus with 18 samples.

Results

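The 9 genes described here encode the core of the Hedgehog pathway: the ligands Shh, Ihh and Dhh, the receptor Ptch1, the signal transducer Smo, the decoy receptor Hhip and the transcription factors Gli1, Gli2 and Gli3. They were taken by gene symbol from the array's probe annotation, with no use of measured values, and comprise 17 of 45281 probes and 9 of 19057 named genes. All 9 had at least 1 probe above background on at least 1 array, and all 17 probes entered the tests. In this pathway a secreted Hedgehog protein binds Ptch1, which otherwise holds the membrane protein Smo inactive. Active Smo, working at the primary cilium, stops Gli2 and Gli3 from being cut into repressors and lets them switch on target genes, among them Gli1, Ptch1 and Hhip themselves. In the mammary gland the pathway is known above all for exchanges between epithelium and the surrounding mesenchyme, and Gli3 repressor is needed for the embryonic mammary buds to form.

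Expression was measured on 18 Illumina MouseWG-6 v2.0 BeadChip arrays, each hybridized with RNA of cells sorted from mammary glands of female FVB/N mice, for which no treatment is given. Sort plots are from virgin mice 8 weeks of age, and no other age is given for the pooled mice. Lineage-negative cells, which had been depleted of cells bearing CD31, CD45 or TER119, were divided by CD29, CD24 and CD61 into the mammary stem cell (MaSC)-enriched subset (CD29hiCD24+CD61+, basal), luminal progenitor cells (CD29loCD24+CD61+), mature luminal cells (CD29loCD24+CD61-) and stromal cells (CD29loCD24-). There were 5 arrays for each epithelial subset and 3 for stromal cells. Each replicate number stands for 1 pool of 3 to 5 mice, from which every subset was sorted, and stromal cells came from pools 1 to 3 only. Pools 1 to 3 were hybridized together (batch 1, 12 arrays) and pools 4 and 5 together (batch 2, 6 arrays), so the stromal arrays have no counterpart in batch 2. The subsets are enriched sorts and not pure cell types. In such bulk samples fewer cells of a type and less RNA per cell cannot be told apart.

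Values are log2 normalized intensities. The background level of each array, set from 1506 probes for olfactory and vomeronasal receptors, lay between 5.10 and 5.44, and 8.10% to 12.8% of those receptor probes were still above it. Levels just past background are therefore given as near background. Basal and fibroblast markers separated by label: the mean of 9 basal markers was 11.24 to 12.58 in MaSC-enriched cells and at most 9.41 on any other array, and the mean of 9 fibroblast markers was 13.54 to 13.74 in stromal cells and at most 11.26 elsewhere. The luminal lists overlapped: luminal progenitor array 4 had a mean of 10.64 for 8 luminal progenitor markers, below mature luminal array 4 at 10.79, and luminal progenitor array 3 had a mean of 10.43 for 5 mature luminal markers, above mature luminal array 4 at 10.38. Of the luminal progenitor markers, Itgb3 (CD61) and Aldh1a3 had their highest means in stromal cells (6.52 and 11.45). Markers of endothelial cells, which the CD31 depletion should remove, were above background on every array (6 or 7 of 7), with means of 10.79 to 11.65 on luminal progenitor array 4 and MaSC-enriched arrays 4 and 3.

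Of the 9 genes, 4 differed between at least 1 pair of subpopulations: Dhh, Gli2, Gli3 and Hhip. A difference was called at an adjusted p under 0.05 and a fold over 1.5 in limma, with p-values adjusted over all probes and all 6 comparisons. Over all 16319 genes measured, 52.6% were called in at least 1 comparison, so 4 of 9 is below the background share. MaSC-enriched cells had 3 of the genes (Dhh, Gli2, Gli3) higher than luminal progenitor cells, where 22.2% of all genes were called in either direction and 11.3% were higher. The same 3 were higher in MaSC-enriched than in mature luminal cells, beside 27.5% of all genes in either direction and 13.7% higher. None of the 9 was called between luminal progenitor and mature luminal cells in limma, where 11.1% of all genes were. There, Smo and Gli3 had an adjusted p under 0.05 (0.0454 and 0.0159) and did not reach the fold of 1.5. Shh had an unadjusted p under 0.05 and an adjusted p of 0.0554, and the fit with the pool as a fixed term called it.

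Against MaSC-enriched cells, stromal cells had 2 genes higher (Gli2, Hhip) and 1 lower (Dhh), with 30.4% of all genes called, 14.3% higher and 16.1% lower. Against luminal progenitor cells, 3 were higher in stromal cells (Gli2, Gli3, Hhip), with 36.3% of all genes called and 16.5% higher. The same 3 were higher against mature luminal cells, with 38.3% called and 16.6% higher. The 3 stromal comparisons share the same 3 arrays and are not independent of each other.

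**Figure D1:**
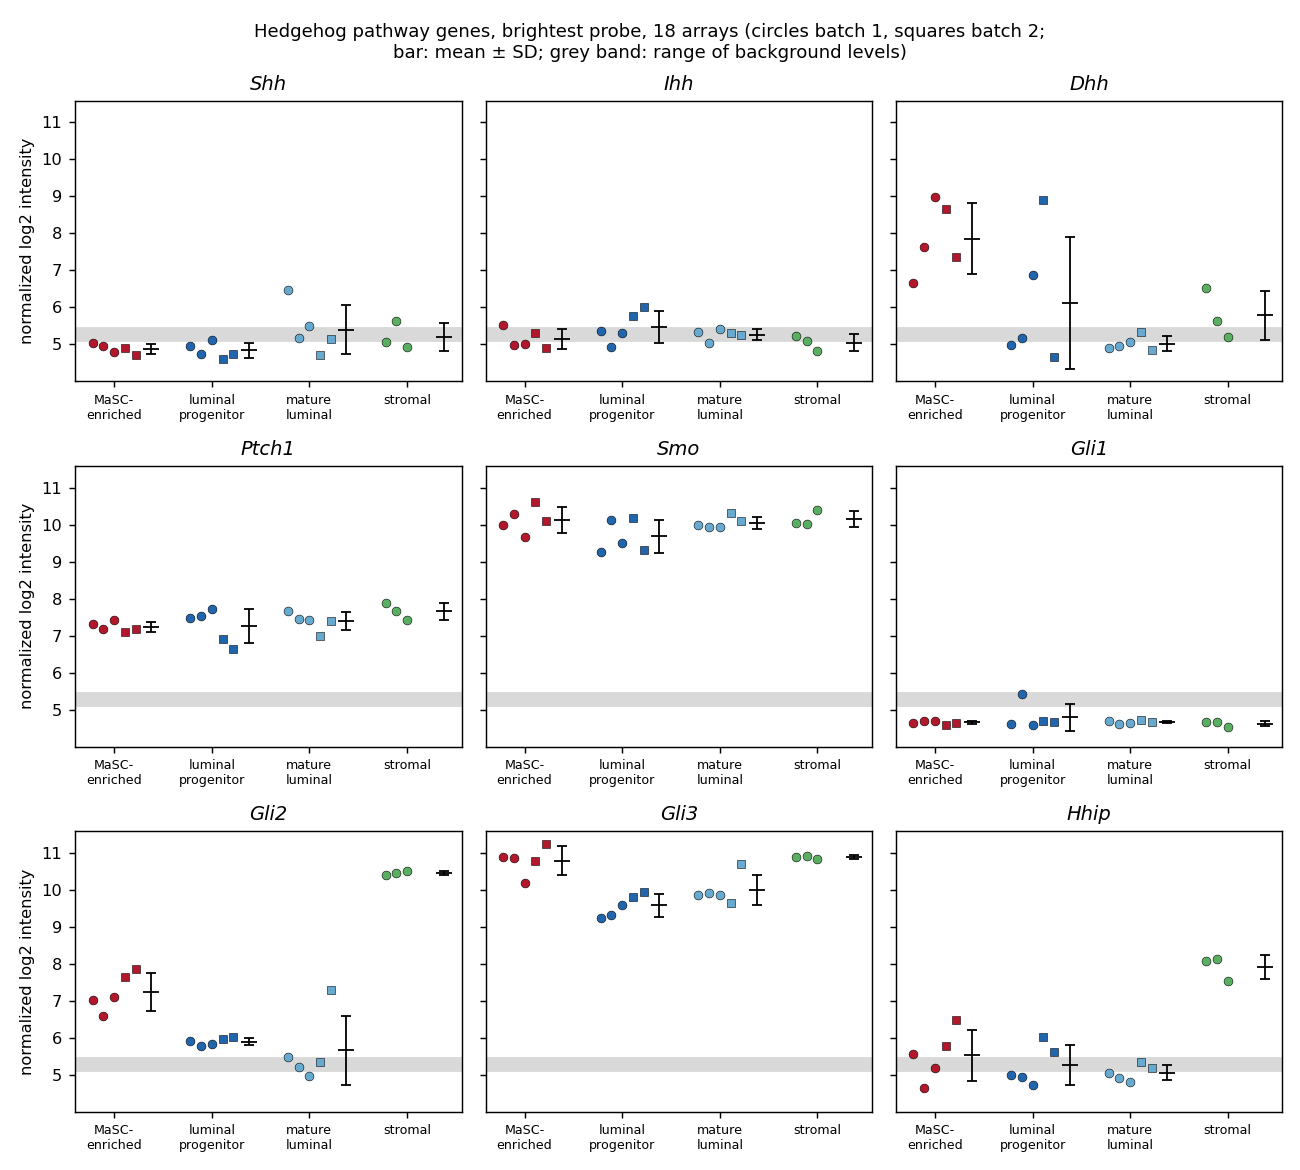
Normalized log2 intensity (y axis) of the brightest probe of each of the 9 genes on the 18 arrays, by subpopulation (x axis), where circles are batch 1, squares batch 2, bars the mean ± SD and the grey band the range of background levels. Gli2 and Hhip stood highest on the 3 stromal arrays, Dhh on MaSC-enriched arrays and luminal progenitor array 4, and Gli1 lay at background on 17 of 18 arrays.

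Dhh, Desert hedgehog, is the ligand known best from Sertoli cells of the testis and from Schwann cells of peripheral nerve, and is also made by endothelial cells. It was the only ligand of the 3 well above background in any subset. On MaSC-enriched arrays 1 to 5 its probe read 6.66, 7.62, 8.99, 8.66 and 7.35. On luminal progenitor arrays 1 to 5 it read 4.99, 5.17, 6.86, 8.90 and 4.67. All MaSC-enriched arrays were thus above background, whereas luminal progenitor arrays 1, 2 and 5 were at or beside it and array 4 reached the level of the highest MaSC-enriched arrays, so these groups overlapped.

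Mature luminal arrays 1 to 5 read 4.89, 4.97, 5.07, 5.34 and 4.84 for Dhh, with only array 4 above background. The 3 stromal arrays read 6.51, 5.63 and 5.20. Every MaSC-enriched array was higher than every mature luminal and every stromal array.

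In the weighted fit, Dhh was higher in MaSC-enriched than in mature luminal cells by 2.73 on the log2 scale (SE 0.43, limma adjusted p = 6.24e-05), and in all 5 pools. Since only 1 of 5 mature luminal arrays was above background, the fold of the plain means is at least 6.38, with arrays below background set to it. It was higher than in luminal progenitor cells by 2.07 (SE 0.46, 4.21-fold, adjusted p = 0.00158), in 4 of 5 pools, pool 4 being the exception with a difference of -0.24. Luminal progenitor array 4, with a Dhh of 8.90, had the lowest weight of the 18 arrays in this fit, 0.171. Only 3 of 5 luminal progenitor arrays were above background, and the fold of the plain means is at least 3.03, with the others set to background. Stromal cells had less Dhh than MaSC-enriched cells, by a log2 difference of -1.80 (SE 0.44, adjusted p = 0.00331). Between luminal progenitor and mature luminal cells the difference of 0.65 (95% interval -0.22 to 1.53) was not past the threshold. Within batch 1 the MaSC-enriched excess was 1.99 over luminal progenitor and 2.64 over mature luminal cells (adjusted p = 0.0159 and 0.00186). Within batch 2, with 2 arrays a subset, it was 1.22 and 2.92 and neither was called (adjusted p = 0.746 and 0.234).

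The endothelial markers were highest on the arrays with the highest Dhh. Between MaSC-enriched and luminal progenitor cells the median log2 difference of the 7 markers was 1.56, in the direction of Dhh. Of the 7 markers, 0 were called there. In MaSC-enriched against mature luminal cells 5 were called higher. In stromal against MaSC-enriched cells the median log2 difference of the 7 markers was -0.92, in the direction of Dhh. Only Tek was called there, higher in stromal cells. The mean of the 7 markers was 8.71, 9.01, 11.65, 11.15 and 7.88 on MaSC-enriched arrays 1 to 5 and 7.73, 7.24, 9.98, 10.79 and 6.79 on luminal progenitor arrays 1 to 5. On mature luminal arrays it was 7.86 to 8.66, and on stromal arrays 8.48 to 9.44. The 3 arrays with the highest Dhh were the 3 with the highest marker means, and Pecam1, which encodes CD31, read 12.67 on MaSC-enriched array 3 against 7.65 on array 5. On MaSC-enriched array 5 the marker mean was within the range of the mature luminal arrays. Dhh on that array, at 7.35, was higher than on any of them. The part of endothelial cells in these Dhh levels was not tested.

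Markers of other cell types were also set beside Dhh. The mean of 7 Schwann cell markers was 6.885 to 7.305 on MaSC-enriched and 6.89 to 7.43 on luminal progenitor arrays. On mature luminal arrays it was 6.52 to 6.89, and on stromal arrays 6.75 to 6.84. Ngfr was called higher and Mbp lower in MaSC-enriched than in each luminal subset, and Sox10 higher than in mature luminal cells. Of 7 pericyte markers, 6 were called higher in MaSC-enriched cells than in each luminal subset. The other, Notch3, was called lower in MaSC-enriched than in mature luminal cells. In stromal against MaSC-enriched cells, where Dhh was lower, Abcc9 and Kcnj8 were called higher and Notch3, Mcam and Des lower. The mean of the 7 pericyte markers was 9.77 on MaSC-enriched array 5, the highest of the 18 arrays, and 9.11 and 9.18 on arrays 3 and 4. This mean was 7.99 and 7.91 on MaSC-enriched arrays 1 and 2, and 8.20, 8.02 and 7.61 on stromal arrays 1 to 3. On luminal progenitor arrays 1 to 5 it was 6.82, 6.97, 8.09, 8.31 and 6.61, and on mature luminal arrays 7.02 to 7.745. Dhh on MaSC-enriched arrays 1 and 2 was above that of every stromal and every mature luminal array. The pericyte mean on these arrays was also above every mature luminal array, and within the stromal range. The mean of 6 adipocyte markers was highest on MaSC-enriched arrays 3 and 4 (7.77 and 7.58) and luminal progenitor array 4 (7.39), the 3 arrays with the highest Dhh. Without MaSC-enriched array 5, the Dhh excess was 2.14 over luminal progenitor and 2.80 over mature luminal cells (adjusted p = 0.00283 and 0.000163). The part of these cell types in the Dhh levels was not tested.

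When MaSC-enriched arrays 3 and 4 and luminal progenitor arrays 3 and 4 were left out, a choice made after seeing the data, the MaSC-enriched excess of Dhh was 2.13 over luminal progenitor cells (adjusted p = 0.000107) and 2.09 over mature luminal cells (adjusted p = 8.65e-05). The stromal difference was then -1.21 (adjusted p = 0.00663), and luminal progenitor cells differed from mature luminal cells by -0.04 in place of 0.65. The arrays were left out for their endothelial markers, but the subsets still differed in markers on arrays 1, 2 and 5. The endothelial mean was 8.71, 9.01 and 7.88 in MaSC-enriched and 7.73, 7.24 and 6.79 in luminal progenitor cells. The pericyte mean was 7.99, 7.91 and 9.77 against 6.82, 6.97 and 6.61. This fit therefore does not test the part of either cell type. The 3 genes whose log2 values followed Dhh most closely over the 18 arrays, which share pools and batches, were Dysf (r = 0.966), Sh3tc1 (r = 0.962) and Gja5 (r = 0.957). Gja5 encodes connexin 40, a gap junction protein of arterial endothelium and heart. Its mean was 8.05 in the MaSC-enriched subset and 5.88 to 6.58 in the others.

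**Figure D2:**
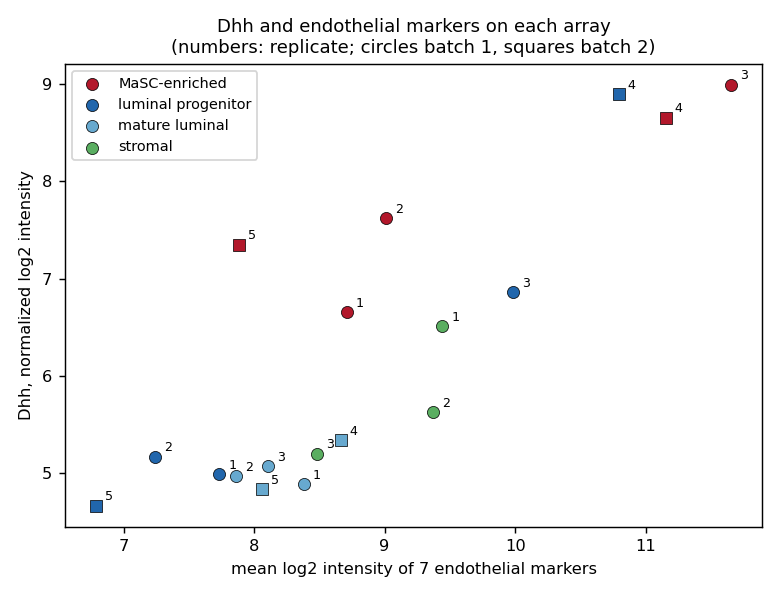
Dhh (y axis, normalized log2 intensity) against the mean log2 intensity of 7 endothelial markers (x axis) on each of the 18 arrays, coloured by subpopulation and numbered by replicate. MaSC-enriched arrays 3 and 4 and luminal progenitor array 4 lie at the upper right, and MaSC-enriched array 5 has a marker mean of 7.88 with a Dhh of 7.35.

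The other ligands were near background throughout. Shh, Sonic hedgehog, the ligand of limb, neural tube and hair follicle patterning, was above background on 3 of 5 mature luminal arrays and 1 of 3 stromal arrays, and on no other. Its brightest reading was 6.47 on mature luminal array 1, and the other 4 mature luminal arrays read 4.71 to 5.48. Set against the background level of the luminal progenitor arrays, the mature luminal mean was at least 1.14-fold higher, and the comparison was not called (adjusted p = 0.0554). Its other probe was above background only on mature luminal array 5, at 5.94, where the brighter probe was not. Ihh, Indian hedgehog, the ligand of growth plate cartilage and gut, was above background on 4 arrays of each luminal subset, 2 of the MaSC-enriched subset and 1 of stromal cells, with a highest reading of 6.01 on luminal progenitor array 5, and no difference was called.

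Ptch1, the receptor and itself a target of the pathway, was above background on every array by its brighter probe and lay within narrow limits. MaSC-enriched arrays read 7.32, 7.18, 7.42, 7.09 and 7.17, and luminal progenitor arrays 7.48, 7.52, 7.71, 6.89 and 6.63. Mature luminal arrays read 7.66, 7.46, 7.43, 6.997 and 7.38, and stromal arrays 7.89, 7.65 and 7.41. All 4 groups overlapped. The widest fitted difference, stromal over MaSC-enriched cells, was 0.40 (SE 0.15, 95% interval 0.08 to 0.72, adjusted p = 0.0525), and it was higher in 2 of 3 pools. In each epithelial subset the batch 2 arrays were below all batch 1 arrays, and the mean fell by 0.18 in the MaSC-enriched subset, fell by 0.81 in luminal progenitor cells and fell by 0.33 in mature luminal cells. The dimmer Ptch1 probe read 4.98 to 6.26 and gave no call.

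Smo, the receptor-like protein that passes the signal into the cell, was present in all 4 subpopulations. Its brightest probe read 9.997, 10.30, 9.66, 10.61 and 10.11 on MaSC-enriched arrays. It read 9.26, 10.12, 9.51, 10.17 and 9.32 on luminal progenitor arrays, 3 of which were below every array of the other subsets. Mature luminal arrays lay between 9.93 and 10.31 and stromal arrays between 10.02 and 10.40. The fitted level in luminal progenitor cells was lower than in MaSC-enriched cells by 0.53 (SE 0.17, adjusted p = 0.0234), than in stromal cells by 0.54 (SE 0.15, adjusted p = 0.011) and than in mature luminal cells by 0.43 (SE 0.16, adjusted p = 0.0454). These passed the p threshold and not the fold of 1.5. The fit with BeadChip as a term took the MaSC-enriched excess to 0.59 and the stromal excess to 0.72, past both thresholds. Within batch 1 alone the MaSC-enriched excess was 0.455 and the stromal excess 0.475 (limma adjusted p = 0.169 and 0.0912). The log2 difference of luminal progenitor from mature luminal cells was then -0.318 (adjusted p = 0.307), so none passed the p threshold.

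The 4 Smo probes did not move alike. Probes ILMN_2741614 and ILMN_2741611 were lower on every batch 2 array than on any batch 1 array of the same subset. For ILMN_2741611 the mean fell by 0.75 in MaSC-enriched cells, fell by 2.26 in luminal progenitor cells and fell by 0.75 in mature luminal cells, while the brightest probe was higher in batch 2 by 0.38, 0.12 and 0.25. Of the 24 comparisons of the 4 Smo probes, 1 was called, stromal over luminal progenitor cells by ILMN_2741614 (0.63, adjusted p = 0.0266), and stromal cells were hybridized in batch 1 only. The probe ILMN_1236330 was near background in most arrays.

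**Figure D3:**
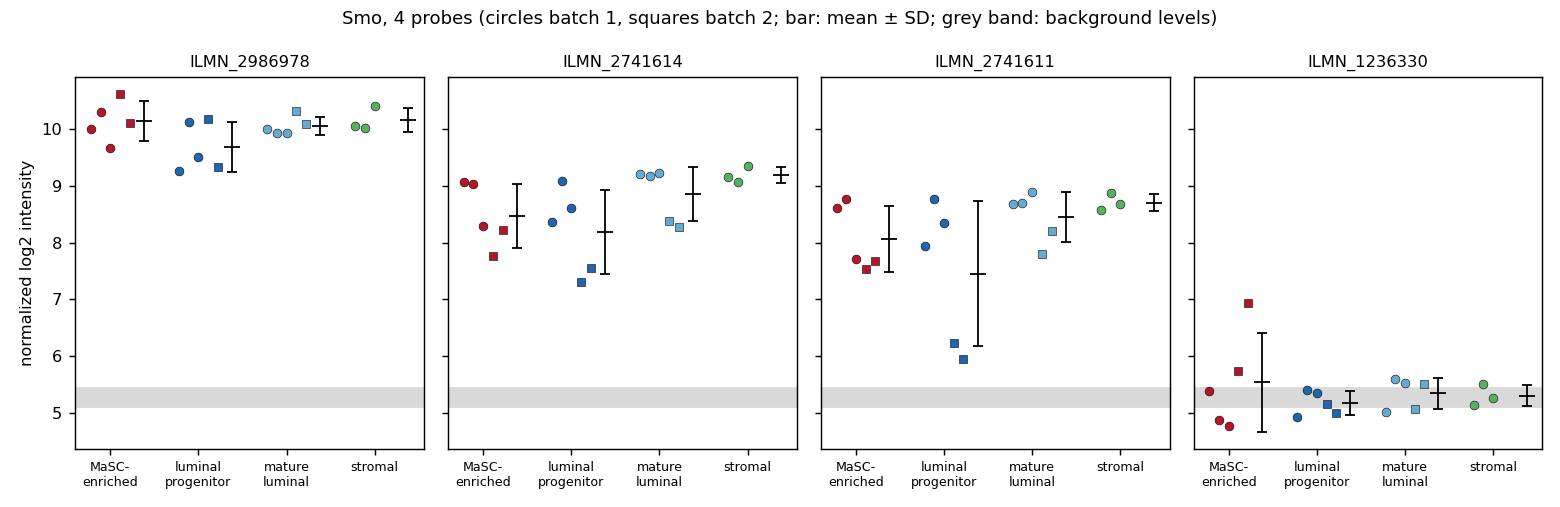
Normalized log2 intensity (y axis) of the 4 Smo probes on the 18 arrays by subpopulation (x axis), where circles are batch 1, squares batch 2, bars the mean ± SD and the grey band the background levels. For ILMN_2741614 and ILMN_2741611 the squares lie below the circles in each epithelial subset, and for the brightest probe, ILMN_2986978, they do not.

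Hhip, a membrane protein that binds Hedgehog ligands and keeps them from Ptch1, was highest in stromal cells. Its probe read 8.07, 8.13 and 7.55 on the stromal arrays. On MaSC-enriched arrays 1 to 5 it read 5.56, 4.64, 5.17, 5.78 and 6.49. Luminal progenitor arrays spanned 4.73 to 6.03 and mature luminal arrays 4.79 to 5.34, so that every stromal array was above every epithelial array.

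Hhip was higher in stromal than in MaSC-enriched cells by 2.66 (SE 0.21, limma adjusted p = 7.23e-09). It was higher than in luminal progenitor cells by 3.01 (SE 0.20, adjusted p = 7.14e-10) and than in mature luminal cells by 3.06 (SE 0.18, adjusted p = 2.18e-10). For Hhip, 4 of 5 MaSC-enriched arrays were above background, 2 of 5 arrays of luminal progenitor cells and 1 of 5 of mature luminal cells. With the others set to background, the stromal mean was at least 4.88-fold, 5.69-fold and 6.65-fold higher than in these subsets. The difference held in all 3 pools in each comparison. In the epithelial subsets, all batch 2 arrays were above all batch 1 arrays, by 1.02, 0.93 and 0.34 in the MaSC-enriched, luminal progenitor and mature luminal means. Within batch 1 the stromal excess was 2.99, 3.09 and 3.07. The genes most like Hhip over the arrays were Metrnl (r = 0.978), Fgf7 (r = 0.972), a growth factor made by mesenchyme that acts on epithelium, and Pkdcc (r = 0.965).

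Gli2, the main activator among the Gli factors, had the widest range of the 9 genes. Its brighter probe read 10.41, 10.46 and 10.49 on the stromal arrays. MaSC-enriched arrays 1 to 5 read 7.02, 6.58, 7.11, 7.65 and 7.86, and luminal progenitor arrays 5.90, 5.77, 5.83, 5.96 and 6.02. These 3 groups did not overlap each other, with stromal cells highest and luminal progenitor cells lowest.

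On mature luminal arrays 1 to 5 Gli2 read 5.49, 5.20, 4.96, 5.36 and 7.29. Arrays 1 to 4 lay below every luminal progenitor array, near background, and array 5 lay among the MaSC-enriched arrays. On that array the fibroblast marker mean was 7.12, the lowest of all 18 arrays, and the basal marker mean was 8.09, inside the range of 7.93 to 8.89 of the mature luminal arrays.

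Stromal cells exceeded MaSC-enriched cells in Gli2 by 3.40 (SE 0.26, 10.6-fold, limma adjusted p = 5.88e-09), luminal progenitor cells by 4.65 (SE 0.25, 25.1-fold, adjusted p = 4.23e-11) and mature luminal cells by 5.03 (SE 0.23, 32.6-fold, adjusted p = 5.92e-12). Among the epithelial subsets, MaSC-enriched cells exceeded luminal progenitor cells by 1.25 (SE 0.28, 2.37-fold, adjusted p = 0.00157) and mature luminal cells by 1.62 (SE 0.26, 3.08-fold, adjusted p = 6.88e-05), each in 5 of 5 pools. The other Gli2 probe was above background on the 3 stromal arrays only, at 5.56, 6.25 and 6.52. There it was at least 1.93-fold higher than in MaSC-enriched, 1.86-fold than in luminal progenitor and 1.94-fold than in mature luminal cells. These bounds set the stromal mean against the background level of the arrays where the probe was not above it, and by this probe the epithelial differences were not called.

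On the stromal arrays Gli2, Hhip and the fibroblast markers were all at their highest. By subset, mean Gli2 was 7.25, 5.895 and 5.66 in MaSC-enriched, luminal progenitor and mature luminal cells. Mean Hhip was 5.53, 5.27 and 5.06 in the same order. The fibroblast ranges given below fell in that order too, with overlap between MaSC-enriched and luminal progenitor arrays. Single arrays departed from this order: mature luminal array 5 had the lowest fibroblast mean with a Gli2 of 7.29. MaSC-enriched arrays 3 and 4 had the highest fibroblast means of the epithelial arrays. Their Hhip was 5.17 and 5.78, below MaSC-enriched array 5 at 6.49. The part of stromal RNA in the epithelial levels was not tested. The mean of the 9 fibroblast markers, with at least 7 of 9 above background everywhere, was 9.34 to 11.26 on MaSC-enriched, 8.59 to 9.73 on luminal progenitor and 7.12 to 8.58 on mature luminal arrays. Without MaSC-enriched arrays 3 and 4 and luminal progenitor arrays 3 and 4, MaSC-enriched cells had more Gli2 than luminal progenitor cells by 1.13 (adjusted p = 0.017) and than mature luminal cells by 1.477 (adjusted p = 0.00214). Those arrays were left out for their endothelial markers. On the arrays kept, the fibroblast mean was still 9.34 to 10.07 in MaSC-enriched and 8.59 to 9.33 in luminal progenitor cells, so this fit does not test the part of stromal RNA. The genes most like Gli2 were Plac9a (r = 0.974), Anxa5 (r = 0.973) and Mxra7 (r = 0.969). Each of these also had its highest mean in stromal cells, for example 10.88 for Plac9a against 5.69 to 7.24 in the epithelial subsets.

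Gli3, the main repressor among the Gli factors, was well above background on all arrays by its brighter probe. MaSC-enriched arrays 1 to 5 read 10.90, 10.86, 10.18, 10.78 and 11.24, and stromal arrays 10.88, 10.93 and 10.82. Luminal progenitor arrays read 9.23, 9.33, 9.58, 9.82 and 9.95, and mature luminal arrays 9.86, 9.91, 9.85, 9.66 and 10.69. MaSC-enriched and stromal arrays overlapped each other, all of them lay above the luminal progenitor arrays, and only mature luminal array 5 reached into their range.

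MaSC-enriched cells exceeded luminal progenitor cells in Gli3 by 1.32 (SE 0.16, 2.50-fold, limma adjusted p = 3.40e-06) and mature luminal cells by 0.83 (SE 0.16, 1.77-fold, adjusted p = 0.00036), in 5 of 5 pools each. Stromal cells exceeded luminal progenitor cells by 1.46 (SE 0.15, adjusted p = 2.79e-07) and mature luminal cells by 0.96 (SE 0.14, adjusted p = 2.06e-05). Stromal and MaSC-enriched cells differed by 0.14 (95% interval -0.19 to 0.46, adjusted p = 0.6) by this probe. The other Gli3 probe, which read 4.59 to 6.77, gave the same 4 calls and a 5th, stromal over MaSC-enriched cells by 0.62 (SE 0.19, 1.54-fold, adjusted p = 0.0166). Luminal progenitor cells were below mature luminal cells by a log2 difference of -0.50 (SE 0.15, adjusted p = 0.0159), short of the fold of 1.5. The genes most like Gli3 were Tctex1d2 (r = 0.939), Triqk (r = 0.939) and Asph (r = 0.922).

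Gli1, an activator whose transcription is a common readout of pathway activity, was at background on 17 of 18 arrays. The exception was luminal progenitor array 2 at 5.43, and the other arrays read 4.53 to 4.72. No difference was called, and with a single probe below background no level can be given for any subset. The absence of a reading for Gli1 limits what these arrays measure and says nothing of whether the gene was transcribed at lower levels.

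**Figure D4:**
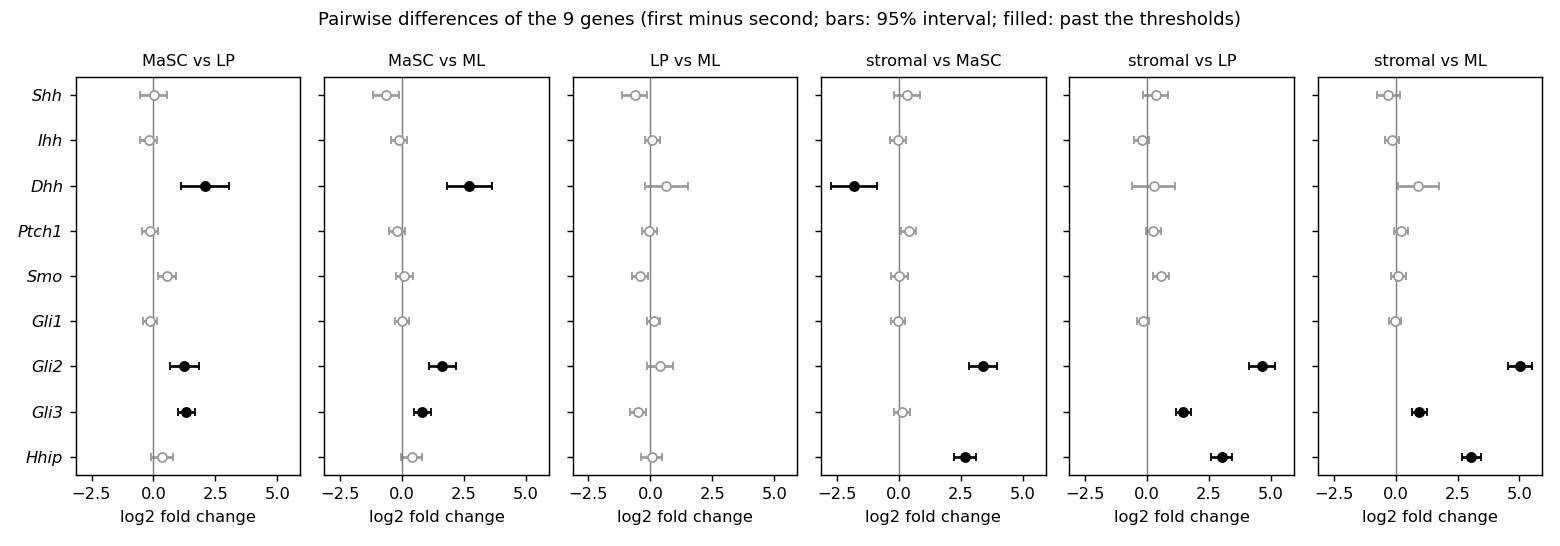
Fitted log2 fold change (x axis, the subpopulation named before "vs" minus the other) of the 9 genes (y axis, brightest probe) in the 6 pairwise comparisons, with 95% intervals, where MaSC is the MaSC-enriched subset, LP luminal progenitor and ML mature luminal cells and filled points pass both thresholds. Gli2 had the widest difference, 5.03 for stromal over mature luminal cells, and Dhh was the only gene called lower in stromal than in MaSC-enriched cells.

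The stretches before the start sites of the 4 genes that differed are shown because Gli2, Gli3 and Hhip were all higher in stromal than in luminal cells and Dhh was not. They are the 250 bases upstream in RefSeq's mouse assembly GRCm38.p6, read 5′ to 3′ on the strand of the gene, and 7 of the 9 genes had such an entry. Capitals mark the letters CCACCC or their reverse complement GGGTGG, the core of the Gli binding motif.
Dhh (chr15:98898541-98898790, minus strand): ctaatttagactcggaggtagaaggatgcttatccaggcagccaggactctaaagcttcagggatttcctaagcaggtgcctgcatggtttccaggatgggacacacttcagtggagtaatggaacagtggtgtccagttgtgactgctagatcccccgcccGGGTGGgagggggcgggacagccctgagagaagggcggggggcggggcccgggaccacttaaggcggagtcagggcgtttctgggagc
Hhip (chr8:80058009-80058258, minus strand): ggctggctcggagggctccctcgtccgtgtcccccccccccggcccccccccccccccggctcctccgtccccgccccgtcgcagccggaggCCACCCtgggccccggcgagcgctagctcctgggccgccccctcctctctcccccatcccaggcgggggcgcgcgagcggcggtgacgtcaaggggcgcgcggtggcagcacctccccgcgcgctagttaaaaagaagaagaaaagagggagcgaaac
Gli2 (chr1:119053620-119053869, minus strand): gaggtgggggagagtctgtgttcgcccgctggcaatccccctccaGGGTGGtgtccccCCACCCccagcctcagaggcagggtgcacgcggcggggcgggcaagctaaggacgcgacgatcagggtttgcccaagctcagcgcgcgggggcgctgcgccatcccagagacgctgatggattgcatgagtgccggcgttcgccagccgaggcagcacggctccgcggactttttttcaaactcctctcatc
Gli3 (chr13:15463473-15463722, plus strand): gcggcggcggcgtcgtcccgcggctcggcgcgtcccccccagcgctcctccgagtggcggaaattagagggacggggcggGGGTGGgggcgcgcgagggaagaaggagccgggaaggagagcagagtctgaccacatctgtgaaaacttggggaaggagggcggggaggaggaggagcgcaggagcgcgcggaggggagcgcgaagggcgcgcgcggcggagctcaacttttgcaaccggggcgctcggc

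The full 9-letter motif GACCACCCA, which contains the core, was in none of the 7 windows on either strand, beside 0.23% of all 32851 windows of the same length. The 6-letter core was in 6 of the 7, all but Ptch1, beside 28.1% of all windows. The windows of these genes held 59.6% to 78.4% G or C, beside a median of 52.4% over all windows, and 28.9% of all windows had at least 59.6%. The core came once in Dhh, Hhip and Gli3 and 2 times in Gli2, at 83 to 200 bases before the start site. Genes that were called and genes that were not (Smo, Ihh) both carried it.

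Around the 9 genes, other parts of the pathway also differed between subsets. Of the genes that help make and release the ligand, 5 of the 7 listed were above background and all 5 were called in at least 1 comparison, beside 52.6% of all genes. Disp1, the transporter that frees the lipid-modified ligand from the cell, had its highest mean, 10.03, in stromal cells and its lowest, 5.99, in mature luminal cells, and luminal progenitor cells (7.54) were below the MaSC-enriched subset (8.67). For Disp1 all 6 comparisons were called, up to 4.30 for stromal over mature luminal cells (SE 0.15, limma adjusted p = 2.06e-13). Scube3, a secreted protein of the family that carries the ligand away, was highest in MaSC-enriched cells at 8.11 ± 0.95 (SD, n = 5), against 5.33 to 5.73 in the other subsets, and was lower in stromal cells by a log2 difference of -2.90 (adjusted p = 5.28e-07). Dhh and Scube3 were thus both highest in the MaSC-enriched mean. Adam17, a surface protease, was higher in stromal than in MaSC-enriched cells by 1.497 (adjusted p = 3.49e-08). Hhat, which attaches palmitate to the ligand, was higher in MaSC-enriched than in mature luminal cells by 0.69 (adjusted p = 0.00331).

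Of the genes of ligand reception, 5 of the 7 measured, from 10 listed, were called in at least 1 comparison, again beside 52.6% of all genes. Gpc3, a glypican that competes with Ptch1 for ligand, had the largest difference in this list: 13.11 ± 0.11 in stromal cells (SD, n = 3) against 7.25 ± 0.73 in mature luminal cells (SD, n = 5), a fitted difference of 6.05 (SE 0.21, adjusted p = 2.06e-13). Gpc6 was likewise higher in stromal than in mature luminal cells, by 3.09 (adjusted p = 3.11e-11). Cdon, a co-receptor that aids the ligand's binding to Ptch1, was highest in stromal cells at 11.98 and lowest in MaSC-enriched cells at 8.59, a difference of 3.35 (SE 0.19, adjusted p = 9.85e-11). It was lower in MaSC-enriched than in mature luminal cells by a log2 difference of -1.98 (adjusted p = 1.25e-07), opposite in direction to Gli2 and Gli3 in that comparison. Hhipl2, a relative of Hhip by sequence, was highest in luminal progenitor cells at 10.75 ± 0.33 (SD, n = 5), and stromal cells were lower by a log2 difference of -5.06 (SE 0.50, adjusted p = 1.59e-07). Boc, the partner of Cdon, had means of 5.61 to 6.06 and no call.

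Of 15 measured genes that carry the signal from Smo to the Gli factors, from 18 listed, 9 were called, beside 52.6% of all genes. Evc and Evc2, which form a complex with Smo at the base of the cilium, were both higher in stromal than in luminal progenitor cells, by 3.24 (SE 0.19, adjusted p = 1.91e-10) and 1.22 (SE 0.12, adjusted p = 1.91e-07). Evc was also higher in MaSC-enriched than in luminal progenitor cells, by 1.90 (adjusted p = 9.43e-07), as Gli2 and Gli3 were. Kif27, a kinesin related to Kif7, was lower in stromal than in mature luminal cells by a log2 difference of -1.47 (adjusted p = 5.92e-06). Spop, an adaptor that marks Gli2 and Gli3 for breakdown, was higher in stromal than in mature luminal cells by 0.87 (adjusted p = 2.46e-05).

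Of 16 measured primary cilium genes, from 17 listed, 8 were called, in mixed directions, beside 52.6% of all genes. Tulp3, Ift80 and Ift122, which act in transport within the cilium, were higher in MaSC-enriched than in luminal progenitor cells by 1.60, 1.07 and 1.00 (adjusted p = 2.53e-05, 0.000104 and 9.56e-05). Stromal cells also exceeded luminal progenitor cells in them, by 1.28, 0.97 and 1.38, all called. Ift80 and Ift122 were called lower in luminal progenitor than in mature luminal cells (-0.68 and -0.65), and Tulp3 was not. Between MaSC-enriched and mature luminal cells only Tulp3 of these genes was called, higher by 1.20. Ift88 was lower in stromal than in mature luminal cells by a log2 difference of -0.84 (adjusted p = 1.17e-06).

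Of 12 measured genes reported elsewhere as Gli targets, from 15 listed, 11 were called, beside 52.6% of all genes. Ccnd2, a cyclin, was higher in MaSC-enriched than in mature luminal cells by 4.77 (SE 0.41, adjusted p = 2.59e-08) and in stromal than in mature luminal cells by 4.52 (SE 0.36, adjusted p = 1.16e-08). Sfrp1, a secreted Wnt inhibitor, and Bmp4, a growth factor, were highest in stromal cells, by 4.72 and 4.57 over mature luminal cells (adjusted p = 1.18e-10 and 1.96e-07). Jag2, a Notch ligand, was instead highest in MaSC-enriched cells, with a mean of 9.83 against 5.43 to 5.997 elsewhere. These genes answer to many signals besides Hedgehog. 

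Counted by direction, stromal against mature luminal cells gave 3 higher and 0 lower of 5 genes of ligand release, 4 and 1 of 7 of reception, 5 and 1 of 15 of transduction, 3 and 1 of 16 of the cilium and 6 and 2 of 12 reported targets. The median log2 differences of these lists were 0.64, 1.24, 0.21, 0.01 and 0.74, beside -0.06 over all genes and 0.21 for the 9 core genes. MaSC-enriched against luminal progenitor cells gave 2 higher and 0 lower, 3 and 2, 2 and 0, 3 and 0, and 6 and 3 in the same order of lists, with medians of 0.24, -0.04, 0.19, -0.05 and 0.59, beside -0.02 over all genes and 0.35 for the 9 core genes. Between luminal progenitor and mature luminal cells the counts were 1 and 0, 3 and 1, 0 and 2, 0 and 2, and 3 and 0. In that comparison 20%, 57.1%, 13.3%, 12.5% and 25% of the lists were called in either direction, beside 11.1% of all genes. For stromal against mature luminal cells the shares were 60%, 71.4%, 40%, 25% and 66.7%, beside 38.3%. For MaSC-enriched against luminal progenitor cells they were 40%, 71.4%, 13.3%, 18.8% and 75%, beside 22.2%.

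**Figure D5:**
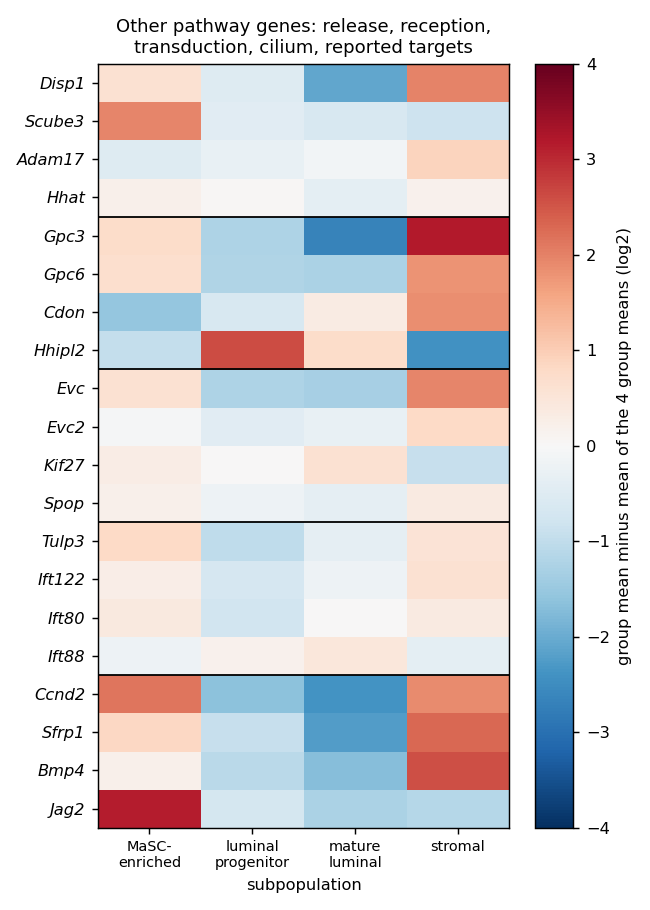
Group means of 20 other pathway genes (y axis, in blocks of ligand release, reception, transduction, cilium and reported Gli targets) in the 4 subpopulations (x axis), each with the mean of its 4 group means subtracted, in log2 units. Disp1, Gpc3, Evc, Sfrp1 and Bmp4 were highest in stromal cells, Scube3 and Jag2 in MaSC-enriched cells and Hhipl2 in luminal progenitor cells.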

How the data were processed

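The log2 intensities deposited by the authors were used as given: they had summarised the scans in BeadStudio, applied limma's neqc, which uses the control probes for a normexp background step and a quantile step, and pooled no arrays. Tool versions are not given in the sources used here. A table of intensities before normalization, with 36 columns (18 of intensity and 18 of detection p) under running numbers that no label ties to a sample, was not used. Probes were named through the platform annotation, in which 34885 of 45281 had 1 symbol, 18 several and 10378 none, and a check by Entrez ID changed no symbol.

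A probe was kept if above background on at least 1 array (35585 probes). Background was the median plus the upper 1% normal point times the median absolute deviation of 1506 receptor probes. Each gene is given by its kept probe of highest mean. In limma 3.58.1 (R 4.3.3, statmod 1.5.0), following the study's methods, 1 mean per subpopulation was fitted to all 18 arrays, with array quality weights (0.171 to 2.88) and a random block for the pool of mice, and Benjamini-Hochberg adjustment covered all kept probes and the 6 comparisons together. Fitted differences are therefore weighted and can depart from differences of plain means. The array labels pair the subsets by pool: arrays of the same pool deviated together (median residual correlation 0.414 over 24 pairs, 0.03 for other pools of the same batch). The number of arrays limits the precision. The steps were tested on simulated data.

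No measured value entered the rule that took the 9 genes by symbol. The choice of this set, of the pathway and marker lists, and of the alternatives was made with earlier results of these data known. Genes named beside the 9 were, per list, the 4 called genes with the largest difference, the 3 genes most correlated with each called gene, and markers where a result turns on them. Boc and the comparison of Evc, Cdon, Ccnd2, Tulp3, Ift80 and Ift122 across further subsets were singled out after their values were seen.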

Additional observations from a re-analysis of the deposited data

Results flagged for a closer look

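In 51 groups of 5 arrays (17 probes in 3 epithelial subsets), 4 had an array that stood apart from the other 4 by Dixon's test at the 95% level, a test that by chance marks about 1 in 20 groups. Mature luminal array 5 was the one in 3 of them, for Gli2 (7.29 by its brighter probe), Gli3 (10.69 by its brighter probe) and the dimmer Shh probe (5.94). Gli1 on luminal progenitor array 2 read 5.43 and was the only reading of this probe above background.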

How the results depend on the processing

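All 15 called differences of Dhh, Gli2, Gli3 and Hhip kept their direction and call in each of 18 fits that left out 1 array. In batch 2 alone, with 2 arrays a subset and no stromal cells, 0 of the 9 genes were called between MaSC-enriched and either luminal subset and 5 other pathway genes were called in place of 38, and over all genes the calls there fell to 178, 563 and 11 in the 3 epithelial comparisons. A test against a fold of 1.5 called 23 other pathway genes and lost Dhh in stromal against MaSC-enriched cells, Gli2 in MaSC-enriched against luminal progenitor cells and Gli3 in both MaSC-enriched and stromal against mature luminal cells. The next-brightest probe lost Gli2 in both MaSC-enriched comparisons. Between luminal progenitor and mature luminal cells, 1 gene in place of 0 was called with the pool as a fixed replicate block, with BeadChip as a block or with a filter of at least 3 arrays (Shh), in batch 1 alone (Gli2), and without luminal progenitor arrays 3 and 4, with or without MaSC-enriched arrays 3 and 4 (Gli3). Leaving out 1 array gave 0 to 2 there (2 without luminal progenitor array 3; 1 without stromal array 1 or 2, mature luminal array 2, 4 or 5, or luminal progenitor array 2), 3 to 4 in MaSC-enriched against each luminal subset and in stromal against each luminal subset, 3 in stromal against MaSC-enriched cells, and 36 to 39 other pathway genes. Without MaSC-enriched and luminal progenitor arrays 3 and 4, 5 genes were called in stromal against luminal progenitor cells, Dhh between luminal progenitor and mature luminal cells was -0.038 in place of 0.65, and Gli3 in stromal against MaSC-enriched cells was -0.002 in place of 0.14. That Gli3 value ran from -0.006 (without MaSC-enriched array 3) to 0.253 when 1 array was left out. Without the replicate block, 38 other pathway genes were called, as with it, and no count for the 9 genes moved by over 1.5 times. Genes near background (Shh, Ihh, Gli1) have no usable level here, and the causes of these changes were not tested.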
